A study of Mus musculus with 12 samples.

Results

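*Atrx*, *Hcfc1*, *Phf6*, *Phf8*, *Brwd3*, *Suv39h1*, *Hdac6*, *Hdac8* and *Msl3* are 9 X‐linked genes whose proteins write, erase, read or remodel chromatin marks or, in the case of *Hdac6*, mainly deacetylate proteins outside the nucleus. They were taken by name from the count files, which list 24627 genes, and all 9 were among the 13191 genes that passed the filter on low counts. Expression was measured by RNA‐seq of J1 cells, a male mouse ES cell line with a single X chromosome, in which doxycycline (DOX) switches on *Xist* from its own locus through a TetO promoter. The 3 lines carried the full‐length transcript (*Xist* FL), a transcript without the A repeat (*Xist* ΔA) or one from which both the B and the C repeat are missing (*Xist* ΔB+C, made by CRISPR deletion in the *Xist* FL line and grown from picked clones). All cells were differentiated by LIF withdrawal until day 2, in 1.5 μg/ml DOX or without it (noDOX), with 2 replicates in each of the 6 groups. A line is a cell clone, so that the effect of a deletion and that of the clone cannot be told apart, and induced cultures also hold cells without an *Xist*‐coated chromosome. In such bulk samples, fewer cells that express a gene and less RNA per cell cannot be told apart.

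X inactivation equalises X‐linked dosage between the sexes: *Xist* RNA spreads over the chromosome that it is transcribed from and most genes on it are silenced, while a few escape. The A repeat of *Xist* is the part known to be needed for gene silencing, and the B and C repeats are needed to bring Polycomb complexes to the chromosome. The 9 regulators are therefore at once possible targets of silencing and part of the machinery that maintains chromatin on all chromosomes. Loss‐of‐function mutations in several of the human counterparts cause X‐linked developmental disorders.

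The members are spread over the X chromosome (positions from GENCODE vM21 on mm10). *Hdac6* (chrX:7930120-7947889) and *Suv39h1* (chrX:8061171-8074760), both on the minus strand, lie 113 kb apart near one end. *Phf6* (chrX:52912266-52956943, plus strand) and *Hcfc1* (chrX:73942792-73966357, minus strand) follow. *Hdac8* (chrX:102284639-102505359), *Atrx* (chrX:105797615-105929403) and *Brwd3* (chrX:108737016-108834372), all on the minus strand, lie 0.955, 2.31 and 5.25 Mb from *Xist*, the nearest of the 9. *Phf8* (chrX:151520672-151633859, plus strand) and *Msl3* (chrX:168654117-168673898, minus strand) lie 48.0 and 65.2 Mb from it. The counts cover all exons of a gene together. Exons of *Brwd3* share 48 bases with *2810403D21Rik* on the other strand, and no other member shares exon sequence with a gene of the count files.

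Promoters are shown for members near the 2 ends of the response to DOX (*Phf6*, second in that order, had no sequence here), the 250 bases before the annotated start in RefSeq sequence of GRCm38.p6, read along the gene, with CpG dinucleotides in capitals. For *Suv39h1*, which has 2 annotated starts, the upstream one is shown.
*Hdac8*, chrX:102505159-102505408, minus strand: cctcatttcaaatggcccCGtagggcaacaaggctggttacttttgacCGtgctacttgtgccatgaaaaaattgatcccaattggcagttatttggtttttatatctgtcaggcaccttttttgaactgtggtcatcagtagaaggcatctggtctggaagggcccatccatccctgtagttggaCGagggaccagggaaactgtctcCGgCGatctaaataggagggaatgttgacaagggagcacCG
*Brwd3*, chrX:108834347-108834596, minus strand: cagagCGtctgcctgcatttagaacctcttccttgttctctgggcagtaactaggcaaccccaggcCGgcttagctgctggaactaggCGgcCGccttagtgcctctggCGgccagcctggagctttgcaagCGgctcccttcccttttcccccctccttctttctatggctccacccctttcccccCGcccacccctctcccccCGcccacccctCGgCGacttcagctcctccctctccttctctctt
*Suv39h1*, chrX:8074761-8075010, minus strand: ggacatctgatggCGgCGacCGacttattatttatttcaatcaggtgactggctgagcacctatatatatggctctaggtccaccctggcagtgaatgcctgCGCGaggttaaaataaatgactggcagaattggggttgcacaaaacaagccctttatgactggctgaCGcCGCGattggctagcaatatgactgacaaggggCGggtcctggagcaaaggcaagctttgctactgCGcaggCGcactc
*Hdac6*, chrX:7947890-7948139, minus strand: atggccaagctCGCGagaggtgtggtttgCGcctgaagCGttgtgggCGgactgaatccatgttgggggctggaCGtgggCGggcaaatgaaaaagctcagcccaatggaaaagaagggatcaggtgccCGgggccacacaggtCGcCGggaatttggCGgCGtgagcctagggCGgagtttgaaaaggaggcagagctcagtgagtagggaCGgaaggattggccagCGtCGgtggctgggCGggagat

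Over the whole windows of 300 bases (250 before and 50 after the start), *Hdac8* held 6 CpGs, *Brwd3* 11, the shown *Suv39h1* start 15 and *Hdac6* 20. The other *Suv39h1* start held 37. Among the remaining members, the windows held 11 CpGs at *Atrx*, 21 at *Hcfc1*, 26 at *Phf8*, and 9 and 36 at the 2 starts of *Msl3*. For *Phf6* no promoter sequence was used here. Windows of the tested X‐linked genes held a median of 14 CpGs (quartiles 8 and 21, 501 windows) and those of all tested genes a median of 20 (13142 windows). The motif CCATNTT, the core bound by the *Xist*‐tethering factor YY1, was searched on both strands. It matched 3 times at *Phf8*, 2 times at *Hcfc1* and once each at *Atrx*, *Hdac6* and the downstream *Suv39h1* start, and did not occur in the windows of *Hdac8*, *Brwd3* and *Msl3* or at the upstream *Suv39h1* start. It occurs in 16.0% of the windows of tested X‐linked genes and in 16.1% of all 32817 promoter windows. A match is a run of letters and not a bound site.

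The libraries held between 31337490 and 41240470 counts. *Xist* had 2.44 to 8.38 CPM without DOX and 557 to 1830 CPM with DOX, in the order that the labels state. CPM are counts per library total, with TMM factors applied wherever members are given. Induction was unequal: *Xist* FL reached 869 and 906 CPM with DOX (replicates 1 and 2). *Xist* ΔA reached less, 714 and 557 CPM, while *Xist* ΔB+C reached more, 1830 and 1170 CPM. Replicate 2 of *Xist* ΔB+C DOX is a low input library made with 100 ng of RNA, where all others took 1000 ng. The ES cell gene *Pou5f1* had 1149 to 1811 CPM in the 12 libraries. No ES cell marker of the list of 10 passed with DOX in any line in the fit of group means (edgeR). With the replicate number as a block, *Sox2* was higher in *Xist* FL (adjusted p = 0.00504) and *Xist* ΔB+C (0.00345). *Dppa5a* was then higher in *Xist* FL (0.00265) and *Zfp42* in *Xist* ΔB+C (0.0478), while *Tdgf1* was lower in both lines (0.0208 and 0.00103). The summed level of 10 ES cell markers lay between 3999 and 4640 CPM in *Xist* FL noDOX, 4544 and 5320 in *Xist* FL DOX, 4182 and 5120 in *Xist* ΔB+C noDOX, 3996 and 5496 in *Xist* ΔB+C DOX, 4687 and 5653 in *Xist* ΔA noDOX, and 4960 and 6024 in *Xist* ΔA DOX. The 6 genes of early exit from pluripotency summed to 1711 to 1984 CPM and 1490 to 1765 CPM in *Xist* FL noDOX and DOX, to 1647 to 1787 and 1219 to 1313 CPM in *Xist* ΔB+C, and to 1882 to 2174 and 1872 to 2134 CPM in *Xist* ΔA. Of these, *Eomes* fell with DOX in both silencing lines (adjusted p = 0.0427 and 0.0431, edgeR), and *Fgf5* fell in *Xist* ΔB+C (adjusted p = 0.0434). *Otx2*, *Dnmt3b*, *Pou3f1* and *T* passed in neither line in this fit. With the replicate number as a block, *Pou3f1* was higher in *Xist* FL (adjusted p = 0.0322, edgeR). *Otx2* was then lower in *Xist* ΔB+C (log2 ratio -0.33, adjusted p = 0.00946), and *Dnmt3b* and *T* again passed in neither line. *Pou3f1* had a log2 ratio of 0.37 in *Xist* FL, the only value above 0 among these genes in that line. *Dnmt3b* made up most of the summed level. The lines were kept without feeder cells, and 7 fibroblast markers summed to 275 to 1013 CPM, most of it *Fn1*, with *Lum* at 0 counts in *Xist* FL DOX. *Thy1* had 5.19 to 10.3 CPM and *Col1a1* 2.24 to 38.1 CPM. In *Xist* FL noDOX and DOX, *Col1a1* had 38.1 and 37.2 CPM in replicate 1 but 5.58 and 7.71 CPM in replicate 2. Primitive endoderm markers (7 genes) summed to 23.1 to 56.9 CPM, with 43.1 and 56.9 CPM in *Xist* ΔB+C DOX, and trophoblast markers (4 genes) to 10.8 to 39.0 CPM. The part of these shifts in the results that follow was not tested.

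In both silencing lines most of the 9 regulators were lower with DOX. In *Xist* FL, *Phf6*, *Phf8*, *Brwd3*, *Hcfc1* and *Hdac8* fell, 5 of 9, against 1.09% of all tested genes and 27.2% of the 464 tested X‐linked genes. In *Xist* ΔB+C the same 5 genes fell, where 2.13% of all tested genes and 34.3% of the X‐linked ones were lower. *Atrx*, *Msl3* and *Suv39h1* did not pass in either line in this fit. DESeq2 also called *Suv39h1* in both lines (adjusted p = 0.0434 and 0.00277), 6 of 9, and limma‐voom called 5. The shares given here are those of edgeR, and shares over all genes were not taken for DESeq2 and limma‐voom. With the replicate number as a block 8 of 9 members were lower in each line, against 8.13% and 12% of all tested genes and 80.6% and 75.6% of the X‐linked ones. *Hdac6* passed in no line under either fit. For 8 of the 9 genes both DOX libraries lay below both noDOX libraries in *Xist* FL and likewise in *Xist* ΔB+C, which was so for 25.7% and 23.3% of all tested genes and for 88.1% and 82.1% of the X‐linked ones. The shares with the block and without overlap were near those of the X chromosome as a whole, and every share of the members rests on 9 genes. The values come from edgeR's quasi‐likelihood test on all 12 libraries with Benjamini–Hochberg adjustment over all tested genes and a threshold of 0.05. The study describes the replicates as biological duplicates, and their numbers are those of the labels.

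The count of 5 rests on an estimate of the spread shared by all 12 libraries. In *Xist* FL it fell to 0 without any 1 of the 4 *Xist* FL libraries, to 2 and 1 without *Xist* ΔB+C noDOX replicate 1 or 2, and to 3 without either *Xist* ΔA noDOX library. In *Xist* ΔB+C it fell to 1 without noDOX replicate 1, noDOX replicate 2 or the low input DOX replicate 2 of that line, and to 3 without either *Xist* ΔA noDOX library. It was 0 in both lines when only the libraries of the line were fitted.

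**Figure D1:**
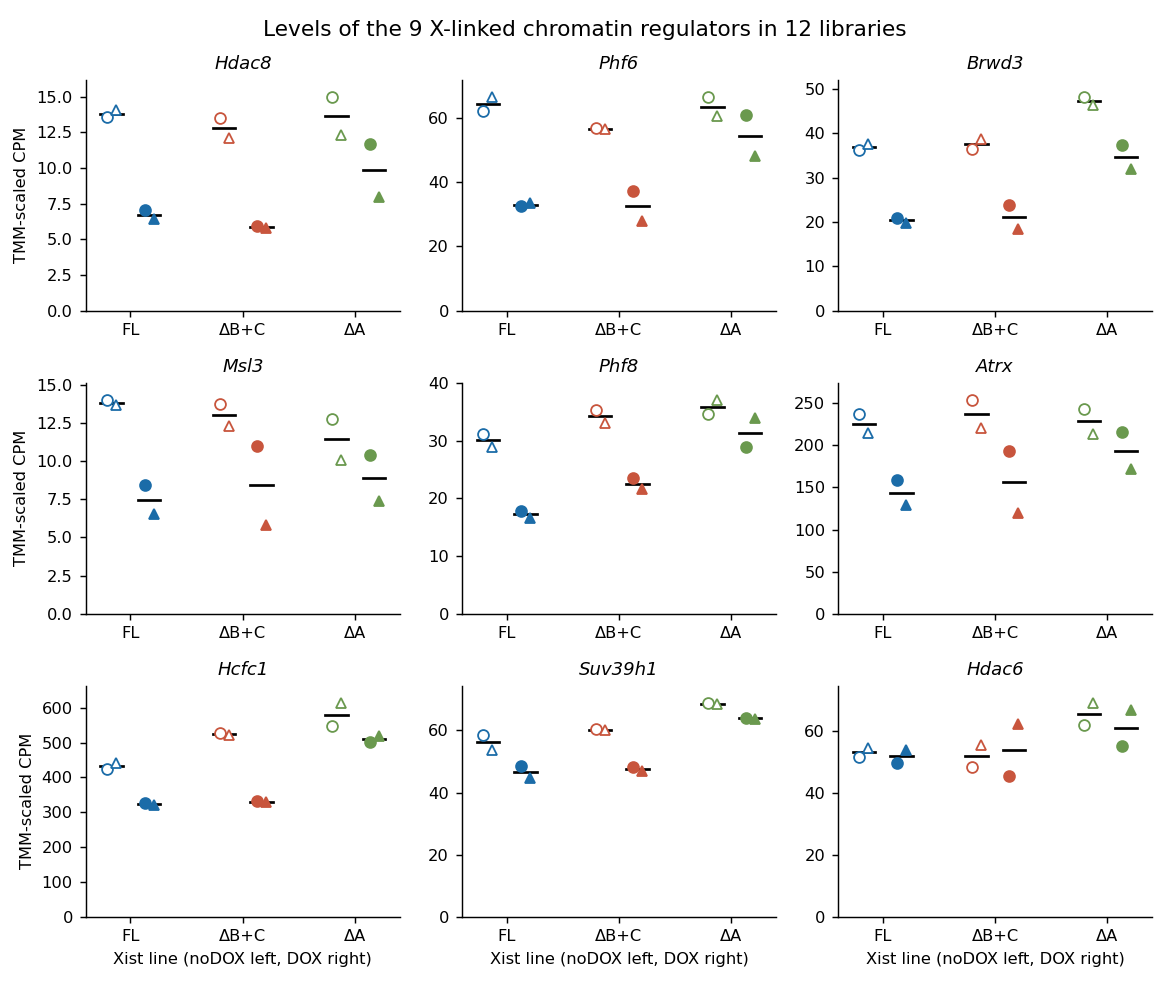
Level of each gene (TMM‐scaled CPM, linear axis from 0) in the 12 libraries, by line, with noDOX on the left (open) and DOX on the right (filled). Circles are replicate 1, triangles replicate 2 and bars the group mean. In *Xist* FL and *Xist* ΔB+C the filled symbols lie below the open ones for 8 of the 9 genes, *Hdac6* being the exception.

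Among the enzymes that remove acetyl groups, *Hdac8* and *Hdac6* lay at the opposite ends of the response. *Hdac8*, the deacetylase of the cohesin subunit SMC3, had 13.6 and 14.0 CPM in the *Xist* FL noDOX replicates 1 and 2, and 7.05 and 6.40 CPM with DOX. The *Xist* ΔB+C levels were 13.5 and 12.1 CPM without DOX and 5.93 and 5.78 CPM with DOX. Both DOX libraries of each line were thus at about the same low level, with no overlap. Its log2 (fold change) was -1.04 (standard error, SE, 0.19, adjusted p = 0.0418) for *Xist* FL and -1.13 (SE 0.19, adjusted p = 0.0201) for *Xist* ΔB+C (edgeR), so that 48.7% and 45.8% of the noDOX level remained. *Hdac6*, whose product deacetylates tubulin in the cytoplasm, had 51.6 and 54.4 CPM in *Xist* FL noDOX and 49.7 and 53.8 CPM with DOX. Levels in *Xist* ΔB+C were 48.4 and 55.5 CPM without DOX and 45.3 and 62.0 CPM with DOX. The groups overlapped in both lines. Its log2 (fold change) was -0.03 (95% interval -0.39 to 0.32) for *Xist* FL and 0.05 (95% interval -0.31 to 0.41) for *Xist* ΔB+C, which leaves room for a moderate change in either direction.

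The enzymes that set or remove histone methylation gave a small and a larger response. *Suv39h1*, which lays down the methyl mark of constitutive heterochromatin, had 58.6 and 53.8 CPM in *Xist* FL noDOX and 48.5 and 44.8 CPM with DOX. For *Xist* ΔB+C the values were 60.3 and 60.0 CPM without DOX and 48.2 and 47.0 CPM with DOX. The groups did not overlap, but the distance was small. Its log2 (fold change) was -0.27 (SE 0.08, adjusted p = 0.188) and -0.34 (SE 0.08, adjusted p = 0.0622), and with the block the adjusted p was 0.0255 and 0.00579 (edgeR). *Phf8*, a demethylase that takes repressive methyl groups off histones, had 31.2 and 29.0 CPM in *Xist* FL noDOX and 17.9 and 16.7 CPM with DOX. In *Xist* ΔB+C its level was 35.3 and 33.1 CPM without DOX and 23.6 and 21.6 CPM with DOX. It fell by 0.80 in *Xist* FL (log2, SE 0.11, adjusted p = 0.0162) and by 0.60 in *Xist* ΔB+C (SE 0.11, adjusted p = 0.0297). The spread between replicates was much smaller than this distance in both lines.

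Of the readers and remodellers, *Phf6* and *Brwd3* fell in both lines. *Phf6*, a PHD‐like zinc finger protein that binds the NuRD complex, had 61.9 and 66.3 CPM in *Xist* FL noDOX and 32.4 and 33.5 CPM with DOX, a fall of 0.96 on the log2 scale (SE 0.15, adjusted p = 0.0246, edgeR). The *Xist* ΔB+C levels were 56.7 and 56.3 CPM without DOX and 37.3 and 27.9 CPM with DOX, a fall of 0.79 (SE 0.15, adjusted p = 0.0312). *Brwd3*, a bromodomain and WD‐repeat protein, had 36.3 and 37.5 CPM in *Xist* FL noDOX and 20.9 and 19.9 CPM with DOX, a fall of 0.86 (SE 0.13, adjusted p = 0.0228). Levels in *Xist* ΔB+C were 36.4 and 38.8 CPM without DOX and 23.8 and 18.5 CPM with DOX, a fall of 0.83 (SE 0.13, adjusted p = 0.0156). For both genes the low input library was the lowest of the line.

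*Atrx* and *Msl3* had log2 ratios of like size but a larger spread between replicates. *Atrx*, a remodeller that deposits a histone H3 variant at heterochromatin together with DAXX, had 236.9 and 214.6 CPM in *Xist* FL noDOX and 159.2 and 128.7 CPM with DOX, which gave a log2 ratio of -0.65 (SE 0.22, adjusted p = 0.227, edgeR). For *Xist* ΔB+C the values were 254.0 and 221.1 CPM without DOX and 193.6 and 120.1 CPM with DOX, which gave a log2 ratio of -0.60 (SE 0.22, adjusted p = 0.179). *Msl3*, the chromodomain subunit of the MSL complex that acetylates histone H4, had 14.0 and 13.6 CPM in *Xist* FL noDOX and 8.45 and 6.50 CPM with DOX, which gave a log2 ratio of -0.89 (SE 0.30, adjusted p = 0.227). The *Xist* ΔB+C levels were 13.7 and 12.3 CPM without DOX and 11.0 and 5.82 CPM with DOX, which gave a log2 ratio of -0.63 (SE 0.29, adjusted p = 0.294). Replicate 2 was below replicate 1 in all 6 groups for *Atrx* (mean log2 ratio -0.31), *Msl3* (-0.39) and *Suv39h1* (-0.05), and above it in all 6 for *Hdac6* (0.21). Once the replicate number was a block, the adjusted p was 0.00365 and 0.00339 for *Atrx* and 0.00726 and 0.0212 for *Msl3*, in *Xist* FL and *Xist* ΔB+C. Without *Xist* ΔB+C DOX replicate 1 the value of that line was -0.98 for *Atrx* (adjusted p = 0.0420, edgeR) and -1.16 for *Msl3* (adjusted p = 0.0675). Without the low input replicate 2 it was -0.30 for *Atrx*, -0.24 for *Msl3* and -0.20 for *Hdac6*, and of the 9 genes only *Hcfc1* passed (adjusted p = 0.0418).

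*Hcfc1*, a scaffold that joins histone methyltransferase and deacetylase complexes to transcription factors, was the most abundant member. It had 424.7 and 440.9 CPM in *Xist* FL noDOX and 326.9 and 321.8 CPM with DOX. Levels in *Xist* ΔB+C were 527.6 and 522.9 CPM without DOX and 332.1 and 329.5 CPM with DOX. The DOX libraries of both lines lay within 321.8 to 332.1 CPM, and the noDOX libraries of *Xist* ΔB+C above those of *Xist* FL. It fell by 0.42 (log2, SE 0.08, adjusted p = 0.0420, edgeR) in *Xist* FL and by 0.67 (SE 0.08, adjusted p = 0.00436) in *Xist* ΔB+C. Without a filter on low counts the *Hcfc1* call in *Xist* FL was lost (adjusted p = 0.0581).

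Ranked by the mean log2 (fold change) of the 2 silencing lines, the order was *Hdac8* (-1.08), *Phf6* (-0.88), *Brwd3* (-0.84), *Msl3* (-0.76), *Phf8* (-0.70), *Atrx* (-0.62), *Hcfc1* (-0.54), *Suv39h1* (-0.30) and *Hdac6* (0.01). This corresponds to 47.2% of the noDOX level for *Hdac8*, 64.9% for *Atrx* and 81.0% for *Suv39h1*. The 95% intervals of every pair of neighbours in this order overlapped in both lines. The summed level of the 9 genes was 928.7 and 924.2 CPM in *Xist* FL noDOX and 671 and 632 CPM with DOX, 1046 and 1012 CPM against 720.7 and 638.2 CPM in *Xist* ΔB+C, and 1099 and 1131 CPM against 984.4 and 951.8 CPM in *Xist* ΔA. *Hcfc1* and *Atrx* made up most of this sum.

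**Figure D2:**
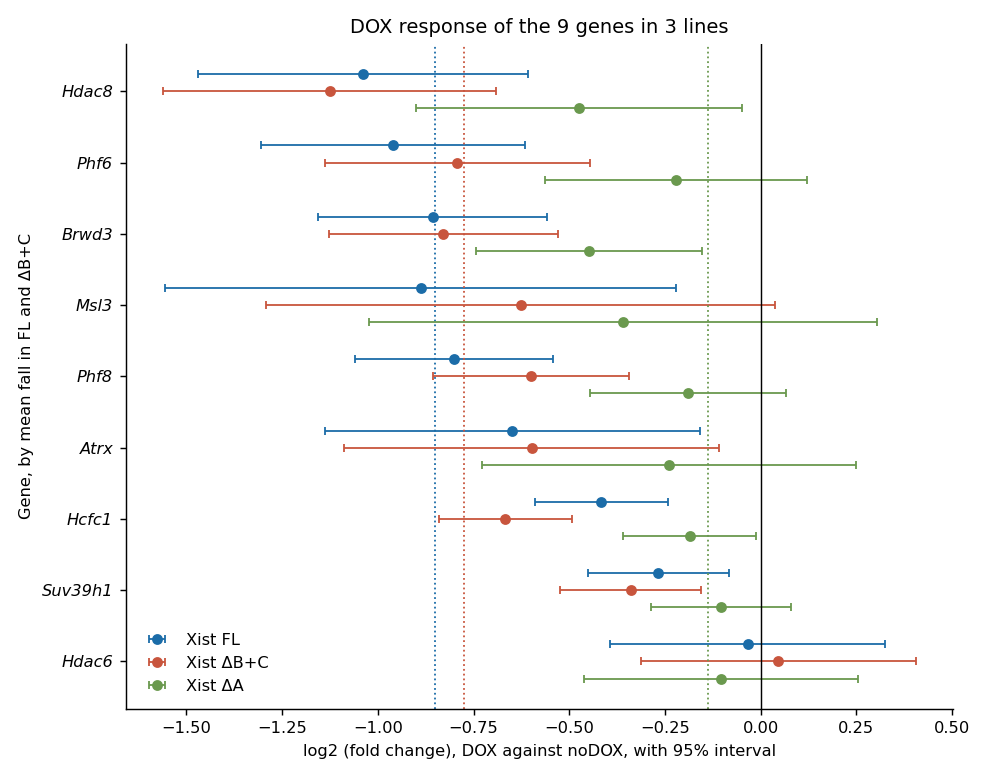
log2 (fold change) of DOX against noDOX for each gene in the 3 lines, with 95% intervals from edgeR (n = 2 against 2). Dotted lines mark the median of the 464 tested X‐linked genes in each line, -0.85 for *Xist* FL, -0.78 for *Xist* ΔB+C and -0.14 for *Xist* ΔA. The genes run from *Hdac8* to *Hdac6* by their mean value in *Xist* FL and *Xist* ΔB+C.

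Within the X chromosome the regulators were spread over much of the distribution. On the log2 scale the median of the 9 was -0.80 for *Xist* FL, -0.63 for *Xist* ΔB+C and -0.22 for *Xist* ΔA, beside -0.85, -0.78 and -0.14 for all tested X‐linked genes and -0.0072, -0.0030 and 0.00014 for all tested genes. *Hdac8* was at rank 158 of 464 in *Xist* FL, counted from the largest fall, and at rank 107 in *Xist* ΔB+C. *Suv39h1* was at ranks 422 and 392, and *Hdac6* at ranks 449 and 440. *Hcfc1* was at rank 380 in *Xist* FL and at rank 279 in *Xist* ΔB+C. In *Xist* ΔA *Hdac8* was at rank 85 and *Brwd3* at rank 91, and the other members lay between ranks 119 and 255.

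**Figure D3:**
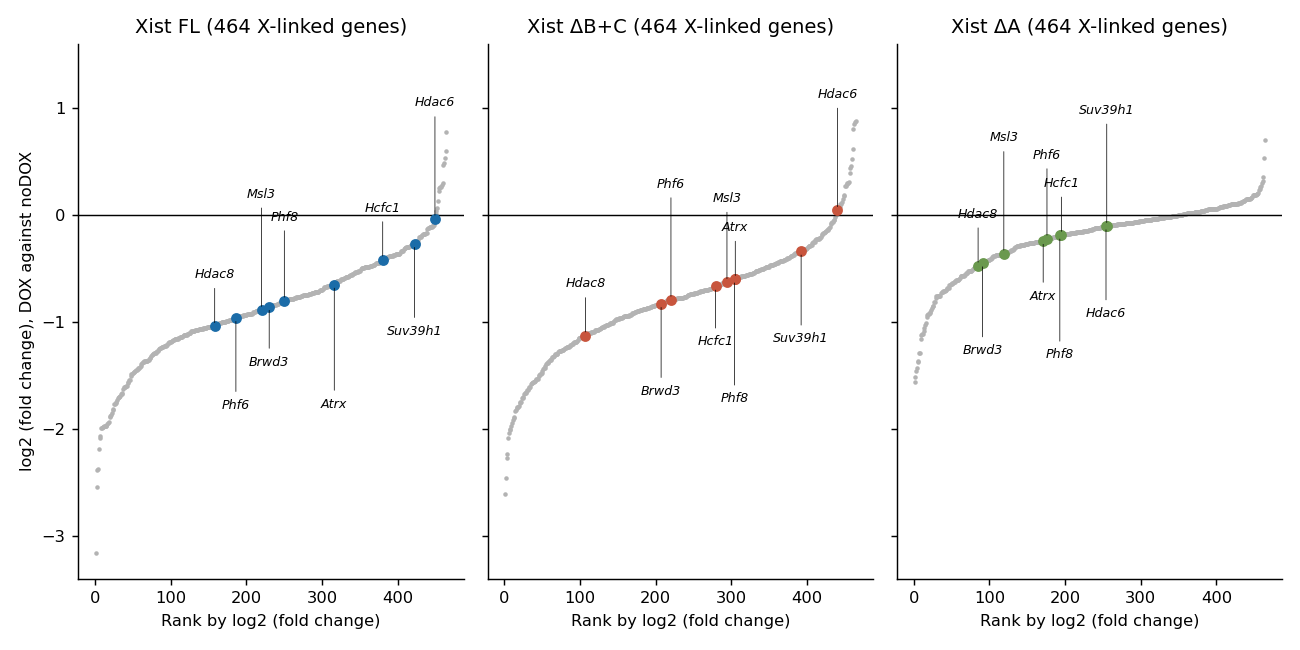
All 464 tested X‐linked genes except *Xist* ranked by log2 (fold change) of DOX against noDOX (grey), with the 9 regulators as coloured, labelled points, in each line. In *Xist* FL they span ranks 158 (*Hdac8*) to 449 (*Hdac6*).

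In *Xist* ΔA no member passed the test with DOX (0 of 9, against 0% of all tested genes lower, edgeR). Limma‐voom and DESeq2 also called 0, and with the block it was 0 (against 0.0152%). At an unadjusted p under 0.05 there were 3, *Brwd3*, *Hdac8* and *Hcfc1*, against 1.13% of all tested genes and 11.4% of the X‐linked ones. *Brwd3* had 48.3 and 46.4 CPM without DOX and 37.3 and 32.0 CPM with DOX, a log2 ratio of -0.45 (95% interval -0.74 to -0.15, adjusted p = 1). *Hdac8* had 15.0 and 12.3 CPM without DOX and 11.7 and 7.98 CPM with DOX, a log2 ratio of -0.47 (95% interval -0.90 to -0.05, adjusted p = 1). *Hcfc1* had 547.6 and 613.6 CPM without DOX and 500.9 and 520.1 CPM with DOX (-0.19, 95% interval -0.36 to -0.01, adjusted p = 1). These 3 and *Phf8* and *Suv39h1* had both DOX libraries below both noDOX libraries, 5 of 9, against 12.5% of all tested genes and 35.6% of the X‐linked ones. All 9 log2 (fold changes) were below 0, from -0.47 for *Hdac8* to -0.10 for *Hdac6* and *Suv39h1*, beside 349 of the 464 X‐linked genes. In *Xist* ΔA *Hdac8* and *Brwd3* had the lowest values of the 9, and *Suv39h1* and *Hdac6* those nearest to 0.

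The test of the difference between lines asks whether 2 lines, which differ in deletion and in clone, responded differently to DOX. The comparisons share the libraries of a line. They are not adjusted for the unequal *Xist* level with DOX or for the share of cells with a coated chromosome. That share also varied by line in the paper's counts. After adjusting for it, the paper found the slightly weaker silencing by *Xist* ΔB+C easier to see. The part of unequal induction in the differences below was not tested. Between *Xist* ΔB+C and *Xist* FL no member differed (0 of 9, against 0% of all tested genes, edgeR, and 0 by limma‐voom, DESeq2 and with the block). *Hcfc1* alone had an unadjusted p under 0.05, with a difference of -0.25 (95% interval -0.50 to -0.01, adjusted p = 1), the value being lower in *Xist* ΔB+C. Of all tested genes 0.804% had such a p, and of the X‐linked ones 2.59%. The interval of the difference was -0.16 to 0.56 for *Phf8*, -0.33 to 0.19 for *Suv39h1*, -0.39 to 0.45 for *Brwd3*, and -0.68 to 1.20 for *Msl3*, so that for most members a difference of moderate size was not detectable with 2 replicates. The median difference over the 9 genes was 0.05, the same as over the X‐linked genes.

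Against *Xist* ΔA, the log2 ratio was lower in the silencing line for 8 of the 9 members in each comparison, without a call in the fit of group means. Most X‐linked genes had the same direction. *Xist* ΔB+C minus *Xist* ΔA was below 0 for 412 of the 464 tested X‐linked genes and 6677 of all 13191 tested genes. *Xist* ΔA minus *Xist* FL was below 0 for 1 of the 9 members, 32 of the X‐linked genes and 6449 of all tested genes. For *Xist* ΔB+C minus *Xist* ΔA no member passed (0 of 9, against 0.205% of all tested genes), with 0 called by limma‐voom and 1, *Hcfc1*, by DESeq2. No share over all genes was taken for DESeq2 in this or the next comparison. At an unadjusted p under 0.05 there were 4 of 9, against 12.1% of all tested genes and 41.8% of the X‐linked ones. With the block *Hcfc1* differed by -0.48 (95% interval -0.69 to -0.28, adjusted p = 0.0117, edgeR), 1 of 9 members, where 9.32% of all tested genes and 42.7% of the X‐linked ones differed. For *Xist* ΔA minus *Xist* FL no member passed either (0 of 9, against 0% of all tested genes), with 0 by limma‐voom and 1, *Phf8*, by DESeq2. An unadjusted p under 0.05 was found for 2 of 9, against 7.44% of all tested genes and 46.6% of the X‐linked ones. With the block *Phf6* differed by 0.74 (95% interval 0.37 to 1.10, adjusted p = 0.0396) and *Phf8* by 0.61 (95% interval 0.30 to 0.93, adjusted p = 0.0442), 2 of 9 members, against 3.31% of all tested genes and 36.9% of the X‐linked ones. Both counts with the block were thus below the share of the X chromosome. The median difference of the 9 genes was -0.38 for *Xist* ΔB+C minus *Xist* ΔA and 0.41 for *Xist* ΔA minus *Xist* FL, beside -0.57 and 0.63 for all tested X‐linked genes. *Hdac6*, with differences of 0.15 and -0.07, was the only member whose log2 ratio was not lower in the silencing line in either comparison.

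The starting levels were not the same in the 3 lines. Per kilobase of exon sequence, noDOX levels were highest for *Hcfc1*, at 50.8 to 73.4 CPM per kb over the 6 noDOX libraries. *Suv39h1* (10.2 to 13.1 CPM per kb), *Atrx* (9.80 to 11.7), *Hdac6* (8.32 to 11.8) and *Phf6* (8.11 to 9.57) followed, each range overlapping that of the next, and then *Msl3* (3.51 to 4.87), *Phf8* (3.11 to 3.98), *Brwd3* (2.86 to 3.80) and *Hdac8* (2.50 to 3.10 CPM per kb). *Hcfc1* was higher without DOX in *Xist* ΔA than in *Xist* FL, by 0.42 on the log2 scale (SE 0.08, adjusted p = 0.0116, edgeR), 1 of 9 members against 4.3% of all tested genes and 3.02% of the X‐linked ones. With the block *Brwd3* (0.36, adjusted p = 0.0216), *Suv39h1* (0.29, adjusted p = 0.00721) and *Hdac6* (0.30, adjusted p = 0.0242) were also higher in *Xist* ΔA, against 16.2% of all tested genes and 11.2% of the X‐linked ones. Between *Xist* ΔB+C and *Xist* FL no member differed without DOX (0 of 9, against 0.0227% of all tested genes, edgeR, and 0 with the block, against 0.993%), with 1 at an unadjusted p under 0.05, against 5.84% of all tested genes and 4.96% of the X‐linked ones.

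Over the 12 libraries, the gene whose log2 CPM followed a member most closely was itself X‐linked for 7 of the 9. Of all 13191 tested genes, 464 were X‐linked apart from *Xist*. The nearest gene was *Jade3* for *Phf6* (Pearson's r = 0.982), *Prps2* for *Brwd3* (0.985), *Rps6ka6* for *Hdac8* (0.972), *Kdm5c* for *Hcfc1* (0.985), *Gripap1* for *Phf8* (0.955), *Dmd* for *Suv39h1* (0.978) and *Fndc3c1* for *Msl3* (0.977). For *Atrx* it was the autosomal *Phlpp2* (0.981) and for *Hdac6* the autosomal *Icmt* (0.949). Of the 20 nearest genes, 19 were X‐linked for *Phf6*, 18 for *Hdac8* and 17 for *Brwd3*. The number was 12 for *Phf8*, 11 for *Hcfc1*, 10 for *Suv39h1*, 9 each for *Atrx* and *Msl3*, and 1 for *Hdac6*. These values describe the libraries, which share their DOX treatment and replicate numbers.

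The neighbourhoods of *Hdac6* and *Suv39h1*, looked at after their values were seen, held genes with small responses and genes with larger ones. The 20 tested genes within 250 kb of *Hdac6*, among them *Suv39h1*, gave medians of -0.42 for *Xist* FL (log2 scale, range -1.05 to 0.60) and -0.38 for *Xist* ΔB+C, of which 2 and 4 were lower, and 13 and 12 with the block. In *Xist* FL these were *Ebp*, a sterol isomerase gene (-1.05, adjusted p = 0.0432, edgeR), and *Otud5*, a deubiquitinase gene (-0.45, adjusted p = 0.0421). In the same window *Pim2* had -0.88 and -1.23, and *Gpkow* -0.76 and -0.71, in *Xist* FL and *Xist* ΔB+C. The 16 genes around *Suv39h1*, among them *Hdac6*, had medians of -0.38 and -0.35, of which 2 and 4 were lower. Of all tested X‐linked genes 27.2% and 34.3% were lower, and 80.6% and 75.6% with the block. The 6 genes around *Hdac8* had medians of -0.97 and -1.0, of which 2 and 5 were lower. The 11 genes around *Hcfc1* had medians of -0.41 and -0.60.

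The other X‐linked chromatin genes, a list of 38 that all passed the filter, also were lower with DOX in part. In *Xist* FL 12 of 38 were lower and none higher, in *Xist* ΔB+C 17 of 38 and none higher, and in *Xist* ΔA none in either direction (edgeR, 3 at an unadjusted p under 0.05, and 0 by limma‐voom). In the silencing lines 27.2% and 34.3% of all tested X‐linked genes were lower, and 1.09% and 2.13% of all tested genes. With the block the counts were 32, 30 and 0. The shares with the block were 80.6% and 75.6% of the X‐linked genes and 8.13% and 12% of all tested genes. Their median log2 (fold change) was -0.93, -0.85 and -0.13. By the mean of both lines the largest falls were those of *Smarca1*, an ISWI remodeller ATPase (-1.99 and -2.03 for the silencing lines in the same order, adjusted p = 0.00349 and 0.00244), and of the nucleosome assembly gene *Nap1l2* (-1.98 and -1.74, adjusted p = 0.0446 and 0.0434). *Usp51*, a histone deubiquitinase gene, had -1.60 and -2.01 (adjusted p = 0.0239 and 0.00702). *Kdm6a*, a histone demethylase gene that escapes X inactivation, had log2 (fold changes) of 0.04 and 0.18 (adjusted p = 0.934 and 0.499). *Kdm5c*, another escape gene, had -0.46 (adjusted p = 0.0657, with the block 0.000756) and fell by 0.64 in *Xist* ΔB+C (adjusted p = 0.0135). *Bcor*, a subunit of a noncanonical Polycomb complex, had -0.19 and -0.18 (adjusted p = 0.796 and 0.757). The Y‐linked relative *Uty* had -0.02 and 0.44 (adjusted p = 0.972 and 0.208), and *Kdm5d*, with a mean of 0.409 CPM, was not tested. Both were lowest in *Xist* ΔA, with or without DOX. *Kdm5d* had 0 CPM in each *Xist* ΔA library, and *Uty* 2.44 to 2.84 CPM there against 9.29 to 17.5 CPM in the other lines.

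Autosomal partners and paralogs of the 9 regulators were mostly not called. Of 34, *Cul4a*, the ubiquitin ligase scaffold with which BRWD proteins work, was the only one to pass. It fell by 0.46 in *Xist* FL (SE 0.07, adjusted p = 0.0247, edgeR) and by 0.39 in *Xist* ΔB+C (adjusted p = 0.0297), and none passed in *Xist* ΔA (0 at an unadjusted p under 0.05, and 0 by limma‐voom). Of all 13191 tested genes, 144 were lower and 19 higher in *Xist* FL, and 281 and 107 in *Xist* ΔB+C. The block raised the partner counts to 4 lower and 1 higher in *Xist* FL, and to 5 lower and 3 higher in *Xist* ΔB+C. Among all tested genes it gave 1072 lower and 755 higher in *Xist* FL, and 1583 and 1304 in *Xist* ΔB+C. The median of the 34 was -0.06, -0.08 and 0.02. *Suv39h2*, the paralog of *Suv39h1*, had -0.05 and -0.10 (adjusted p = 0.904 and 0.736). *Daxx*, the partner of *Atrx*, had 0.20 and 0.18 (adjusted p = 0.790 and 0.771). *Smc3*, the substrate of *Hdac8*, had -0.29 and -0.20 (adjusted p = 0.324 and 0.390, 0.0285 and 0.0694 with the block). *Msl1*, the scaffold of the MSL complex, had 0.26 and 0.47 (adjusted p = 0.635 and 0.242, 0.0378 and 0.00140 with the block), and *Msl3l2*, a close copy of *Msl3* with which it could share reads, had -0.32 and -0.40 (adjusted p = 0.713 and 0.547).

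**Figure D4:**
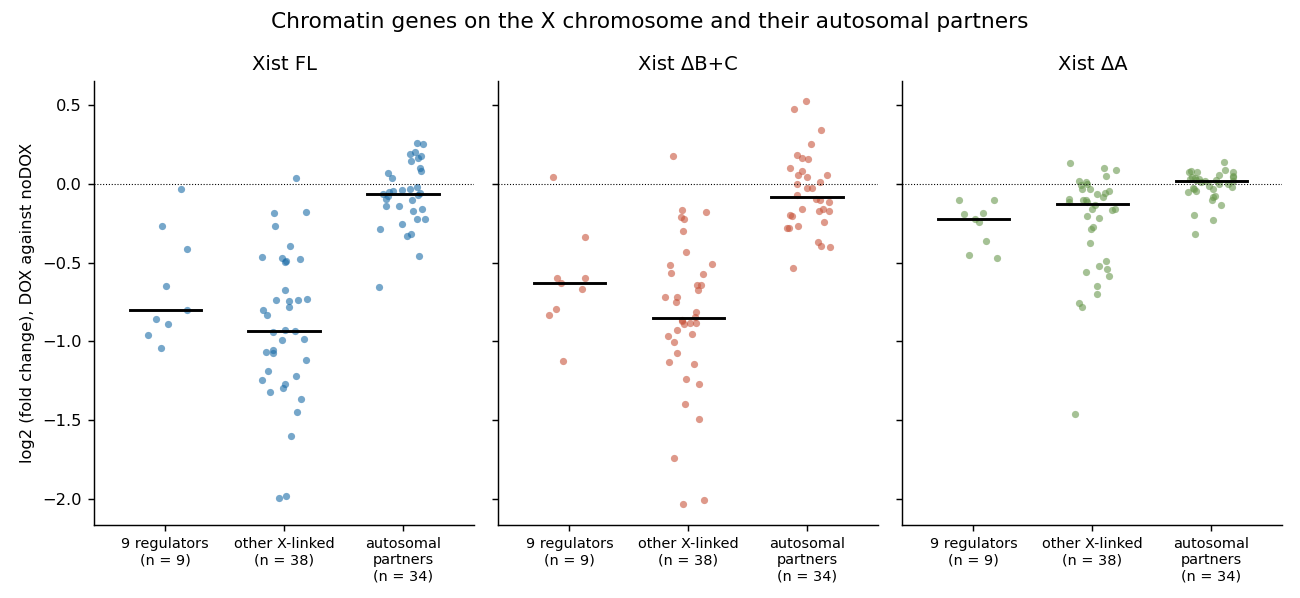
log2 (fold change) of DOX against noDOX for the 9 regulators, 38 other X‐linked chromatin genes and 34 autosomal partners and paralogs, in each line. Each point is a gene, spread sideways only to be seen, and bars are medians. In *Xist* FL the medians are -0.80, -0.93 and -0.06.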

How the data were processed

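RNA‐seq of 12 libraries (3 lines, DOX and noDOX, 2 replicates) was used. The authors mapped read pairs to mm10 with TopHat2 2.1.0 and the refFlat annotation, and counted pairs over exons with featureCounts 1.5.1, leaving out pairs split between chromosomes. The deposited values are these raw counts per gene, 1 file per library, without normalization and without a stated use of strand. PCR duplicates are not mentioned. For *Xist* ΔB+C noDOX replicate 1 the name of the file contradicts the noDOX label, and the label was used (*Xist* count 96).

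A gene was tested if 6 or more libraries had at least 1 CPM of it (13191, of which 464 X‐linked apart from *Xist*). Library sizes were scaled with TMM factors from autosomal genes. CPM values in the text use these factors, except those of *Xist*, which are per library total. All libraries were fitted together with 6 group means by edgeR 4.0.16 (robust quasi‐likelihood test) in R 4.3.3, with Benjamini–Hochberg adjustment over all tested genes and a threshold of 0.05. Standard errors are the log2 (fold change) divided by the root of the F statistic. Responses to DOX in each line, their differences between lines and noDOX levels between lines were tested. The alternatives were limma‐voom (limma 3.58.1), DESeq2 1.42.0, other scalings and filters, fewer libraries and a replicate block. The main test and DESeq2 and limma were tested on simulated counts. Those counts were drawn independently for each library, without a deviation shared by replicate number, so that they cannot decide on the use of the block. Libraries with the same replicate number deviated together: the replicate 2 over 1 ratio of autosomal genes correlated between all 15 pairs of groups (r = 0.405 to 0.838). The numbers of the labels were therefore taken as pairs, but only in the replicate block and in ratios by pair. The main fit of group means holds no term for the pairs. With 31337490 to 41240470 counts per library, 3 counts correspond to 0.0727 to 0.0957 CPM, which covers counting error only.

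All 9 members are named. The other X‐linked genes named are those with the largest and smallest falls and known escape genes, the partners come from a list, and for each member the gene of highest Pearson's r (log2 of CPM plus 1) is given. Of the listed genes 2 were matched by an older symbol. The members and lists were chosen with earlier results of these data known. Promoter sequences came from RefSeq (GRCm38.p6), where 8 of the 9 members had an entry. Figures were drawn with matplotlib 3.10.9.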

Additional observations from a re-analysis of the deposited data

Results flagged for a closer look

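The response to DOX of 3 members differed between lines by a test of the difference itself, in edgeR only once the replicate number was a block (2 replicates per group). DESeq2 without the block called *Hcfc1* and *Phf8* but not *Phf6*, with no share over all genes taken for it. *Phf6* differed by 0.74 and *Phf8* by 0.61 on the log2 scale between *Xist* ΔA and *Xist* FL, with the smaller fall in *Xist* ΔA. *Hcfc1* differed by -0.48 between *Xist* ΔB+C and *Xist* ΔA, with the larger fall in *Xist* ΔB+C. With the block 36.9% and 42.7% of the X‐linked genes differed in these comparisons, more than the 2 and 1 of 9 members. Both replicate pairs showed the direction for each of the 3 genes. The compared lines also differed in their *Xist* level with DOX, for which no adjustment was made.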

How the results depend on the processing

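With the replicate block, the number of members lower with DOX rose from 5 to 8 in *Xist* FL and from 5 to 8 in *Xist* ΔB+C, and the members whose response differed rose from 0 to 1 for *Xist* ΔB+C minus *Xist* ΔA and from 0 to 2 for *Xist* ΔA minus *Xist* FL. With DESeq2 these 2 differences had 1 member each, for which no share over all genes was taken. With the compared line alone, 0 members were lower in either line. The block also raised the members higher without DOX in *Xist* ΔA than in *Xist* FL from 1 to 4, and changed no other count of members. Leaving out 1 library moved the members lower from 0 to 5 in *Xist* FL and from 1 to 5 in *Xist* ΔB+C. Under the same alternatives the median log2 (fold change) ranged from -0.85 to -0.71 in *Xist* FL, -0.98 to -0.54 in *Xist* ΔB+C and -0.40 to -0.18 in *Xist* ΔA, and the median difference from -0.11 to 0.19 for *Xist* ΔB+C minus *Xist* FL, -0.57 to -0.22 for *Xist* ΔB+C minus *Xist* ΔA and 0.26 to 0.57 for *Xist* ΔA minus *Xist* FL. The last median was 0.41 with DESeq2, limma‐voom and the replicate block and with TMM factors from all genes, 0.37 with library totals alone, 0.42 without a filter and 0.40 with a filter of 5 CPM. Leaving out 1 library turned the sign of small values: *Hdac6* ranged from -0.092 to 0.021 in *Xist* FL, -0.20 to 0.26 in *Xist* ΔB+C and -0.25 to 0.031 in *Xist* ΔA, and its differences from -0.16 to 0.29, -0.10 to 0.36 and -0.22 to 0.065. For *Xist* ΔB+C minus *Xist* FL the ranges were -0.34 to 0.35 for *Atrx*, -0.057 to 0.36 for *Phf6*, -0.17 to 0.19 for *Brwd3* and -0.27 to 0.64 for *Msl3*, and for *Xist* ΔB+C minus *Xist* ΔA it was -0.80 to 0.12 for *Msl3*. The cause of these changes was not tested, except that fits with fewer libraries estimate the spread from fewer of them. *Hdac8* and *Msl3*, the members with the lowest counts, rest on 183 to 616 counts per library.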
